A study of Mus musculus with 2 samples.

Results

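A splice junction is the place where a sequencing read leaves one stretch of the genome and continues in another, so that the skipped stretch is read as an intron. The junctions described here were chosen by their measured reads and by the annotation: at least 10 reads summed over both libraries, and neither edge of the skipped stretch at an intron end of any Ensembl transcript (release 65, mouse build mm9). They number 14399 of 187590 junctions with at least 10 reads, and of 1061777 junctions in the file. Of the others with at least 10 reads, 151843 were annotated introns, 4906 joined known ends in a new pairing and 16442 had 1 new end. Of the 14399, 7895 lay inside the span of an Ensembl gene on either strand and 6504 did not. Read number, position and annotation chose these junctions, so their reads and their newness are given as a description.

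Bladders of C57BL/6J littermates, 8 weeks old and of mixed sex, gave the RNA. It was polyadenylated, longer than 200 nucleotides and depleted of ribosomal RNA, and the libraries were stranded and read from both ends. The 2 libraries are numbered as biological replicates but name the same donor entry, and the labels do not say how many animals each holds, so a difference between them may be technical. Each junction's name gives its reads in a library called R1 and a library called R2, which no label ties to replicate 1 or replicate 2; in all, junctions took 53589498 R1 reads and 60510166 R2 reads. Genes of smooth muscle and of urothelium were both read, with 437880 reads at the highest annotated junction of Acta2, smooth muscle actin, and 77535 at that of Upk1a, a uroplakin of the urothelium.

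The spliceosome removes introns that nearly always begin with GT and end with AG. A small share of introns begins with GC in place of GT, and a rarer class, removed by the minor spliceosome, can begin with AT and end with AC. Reads that skip part of a transcript can also arise without the spliceosome, for example where reverse transcriptase or an aligner moves between copies of a repeated sequence, and an aligner that is not given an intron's position has to place its edges from the letters alone.

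Each junction in the file carries a flag with no written explanation. Among the 14399, where the letters at both edges could be read from transcript sequence, all 563 junctions with the flag began with GT and ended with AG, and none of the 1321 junctions without it did (15 were GC-AG, 11 were AT-AC and 1295 had any other letters). The flag is called the GT-AG flag here. Of the 14399 junctions with 2 new ends, 6896 (47.9%) carried it, against 94.4% of junctions with 1 new end and 99.7% of annotated introns with at least 10 reads. By the flag and by position the junctions fell into 3 groups: 1172 had the length of an annotated intron and lay a few bases beside it, another 6824 carried the flag, and 6403 did not.

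The sequences that separate these groups are shown first. They come from GENCODE M21 transcripts (build GRCm38), in the direction of the junction's strand, and the coordinates are the mm9 positions of the files. The first set shows the edges of annotated introns beside which a new junction was placed, 15 exon and 15 intron bases at each edge, with the first and last 2 intron bases in capitals. Slc25a3 (chr10:90586452-90586660, - strand) encodes the mitochondrial phosphate carrier. Psme1 (chr14:56198879-56198950, + strand) encodes a proteasome activator subunit, and the junction 2 bases below its intron had 1676 R1 and 1154 R2 reads. Ciao2b (chr8:107165291-107165448, - strand) encodes a factor of iron-sulfur cluster assembly, and the junction 2 bases below had 678 and 702 reads.
Slc25a3 intron start: tgttcgccatcttagGCaagtgagcgcgac
Slc25a3 intron end: ctgtctcccccgcAGgaggatgttctcgtc
Psme1 intron start: aagaagcaacaggagGCaagctgggagacc
Psme1 intron end: tcttcctccctacAGaaggaagagaaggaa
Ciao2b intron start: cccgggagatcttcgATatccgtcgctgca
Ciao2b intron end: tccttcacttggcACatcttatccgctcca
The first 2 introns are GC-AG and the third is AT-AC. Psme1 and Ciao2b, like the genes of the next 2 sets, were chosen after their values were seen.

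The second set shows junctions without the flag that lay within 1 annotated exon, with the bases that both edges share in capitals. Srsf1 (chr11:87864334-87864410, + strand) encodes a splicing factor, Actg1 (chr11:120207343-120207487, - strand) cytoplasmic actin, and Tardbp (chr4:147999279-147999369, - strand) the RNA-binding protein TDP-43. Each line spans 15 bases on either side of an edge.
Srsf1 upstream edge: tatctgaacaccataCAGAAACTTgttttg
Srsf1 downstream edge: taactcatcattcccCAGAAACTTtttttg
Actg1 upstream edge: ctgctcccttGGTATatgtttaataccctg
Actg1 downstream edge: atctgtgcagGGTATtaaccaacagcagac
Tardbp upstream edge: acagttacagCCCAGtttccaggggcatgc
Tardbp downstream edge: ttctgcatgcCCCAGatgctggctggggca
The shared run was 9 bases in Srsf1 and 5 bases in Actg1 and in Tardbp. R1 and R2 had 164 and 197 reads at the Srsf1 junction, 498 and 240 at Actg1, and 89 and 184 at Tardbp.

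The third set shows a junction with the flag within 1 exon, marked in the same way. Snhg11 (chr2:158208900-158211008, + strand) is a long noncoding RNA.
Snhg11 upstream edge: gtgatggttcctCAGgtactttgtaatctc
Snhg11 downstream edge: gcttatgtcttcCAGaaaatgaagtcccag
The shared run was 3 bases, and R1 and R2 had 155 and 365 reads.

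The fourth set shows exon joins of junctions outside Ensembl 65 genes whose intron length, strand and neighbouring genes match an intron of M21, with the downstream exon in capitals. Ly6a (chr15:74828048-74828308, - strand) encodes the cell surface protein Sca-1, and Elob (chr17:23965946-23966049, - strand) encodes elongin B. Muc16 encodes a large membrane mucin, and 2 of its joins, at chr9:18342080-18342209 and chr9:18323793-18323922 (- strand), are shown because they spell the same bases.
Ly6a join: cttgtctgagaggaaCCCTTCTCTGAGGAT
Elob join: gcagccgccgggatgGACGTGTTTCTCATG
Muc16 join, upstream copy: actggcttccctcagGCCTAAGAAGAATGG
Muc16 join, downstream copy: actggcttccctcagGCCTAAGAAGAATGG

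Reads were uneven in 2304 of the 14399 junctions (16%), where 8.01% of all 187590 tested were. Uneven means at least 2-fold from the share of R1 over all junctions, with a Benjamini-Hochberg adjusted p of at most 0.05 in a two-sided exact binomial test per junction. This compares 2 libraries, with counting error alone as the error, so it says nothing of a condition. In bulk RNA a difference of this kind can also follow the makeup of the tissue piece, since fewer cells of a type and less RNA per cell cannot be told apart. Higher in R1 were 1145 (4.94% of all tested were called in that direction) and higher in R2 were 1159 (3.08%).

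Known introns placed a few bases away made up 8.14% of the junctions with 2 new ends and 36.5% of their reads. In these 1172 junctions both edges lay the same distance from those of an annotated intron, at most 12 bases, so the length was unchanged. All lay inside genes, in 1036 host genes. They held 498741 of 1365927 reads, with a median of 142 reads against 19 for other junctions inside genes with the flag and 17 for those without. In 1121 of the 1172 the annotated position itself had 0 reads in the file, and in 47 of the remaining 51 it had more reads than the new one.

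The direction was nearly uniform. Of the 1172, 1125 lay toward lower coordinates and 1089 by 1 to 4 bases. On the + strand 396 of 699 lay 2 bases lower, and on the - strand 279 of 473 lay 1 base lower. The exon letters differed with strand in the same way. Of 279 + strand junctions at 2 bases lower whose exons could be read, 274 (98.2%) had an upstream exon ending in AG, against 55.4% of 172437 annotated introns. Of 191 - strand junctions at 1 base lower, 173 (90.6%) had a downstream exon starting with G, against 48.4%. Where an exon ends in AG and the intron ends in AG, edges placed 2 bases earlier spell the same spliced RNA. Slc25a3 above shows the 1-base case on the - strand: its intron and the exon after it both begin with G, so edges 1 base later in the transcript, which is 1 base lower in the genome, leave the spliced RNA the same. A further 53 junctions (21701 reads) were equal moves of known ends in a new pairing and are counted with the other groups.

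**Figure D1:**
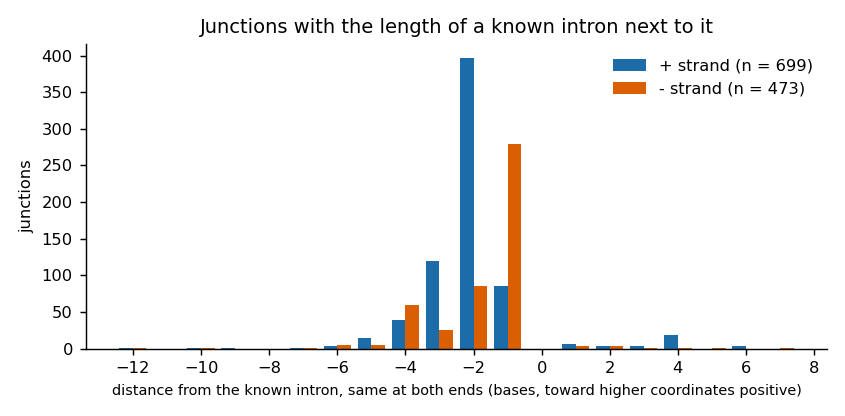
Number of junctions (vertical axis) by distance in bases from the annotated intron of the same length (horizontal axis, positive toward higher coordinates), for the + strand (699 junctions) and the - strand (473). Most + strand junctions sit at -2 (396) and most - strand junctions at -1 (279).

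The annotated introns behind these junctions were of an uncommon kind. For 1100 of the 1172 the new junction had no GT-AG flag. Among those, the first 2 bases of the annotated intron could be read in 211, and 178 (84.4%) were GC, 9 were AT and 14 were GT. Over all annotated introns whose first 2 bases could be read, 3.01% were GC and 89.8% GT. With both edges read, 76 of 312 GC-AG introns (24.4%) had such a neighbour, as did 5 of 26 AT-AC introns and 1 of 11408 GT-AG introns. Conversely, 66.3% of the GT-AG introns had at least 10 reads at their annotated position, against 5.77% of the GC-AG introns (18 of 312). These shares cover introns that lie within an exon of another transcript, since no mm9 genome was used. The 72 with the flag lay mostly 4 bases away (45 lower, 17 higher).

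By reads, 8 of the 12 highest junctions inside genes were of this kind. Gsdmc2, a pore-forming gasdermin, had 3386 R1 and 8139 R2 reads at chr15:63665031-63666483. Spint2, a serine protease inhibitor, had 4853 and 6568 reads at chr7:30043225-30043444, which is 96.1% of the reads of the gene's highest annotated junction. Slc25a3 had 4096 and 5751 reads at chr10:90586451-90586659. These 3 lay 1 base below their annotated introns, none of which had a read.

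Sod1, superoxide dismutase, had 4165 and 4948 reads 3 bases lower at chr16:90221172-90223021. Sf3b1, a subunit of the U2 snRNP, had 3586 and 4734 reads at chr1:55044999-55047145, 151% of its highest annotated junction. Pkm, pyruvate kinase, had 3127 and 4981 reads at chr9:59519531-59519725. Dazap2 had 2312 and 5179 reads at chr15:100446154-100447341. The eighth, in the receptor phosphatase gene Ptprs at chr17:56560784-56561547, had 2600 and 2459 reads 4 bases beside an annotated intron with 105 reads of its own. Over 1154 such junctions the median was 40.3% of the highest annotated junction of the host gene. It was 2.26% for 1532 other junctions with the flag and 0.521% for 3842 without. These counts take in only junctions inside a gene and on its strand, where the gene had reads at an annotated junction.

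The other 4 of the 12 highest inside genes, 1 of them in Zc3h7a and described further on, had no annotated intron of their length beside them. Col1a2, a chain of type I collagen, had the most reads of all, 5269 R1 and 6484 R2, at chr6:4455909-4458927 (3019 bases, without the flag), or 23.1% of the gene's highest annotated junction, and the intron was also present in the models assembled from these reads. Atp2a2, the SERCA2 calcium pump, had 3633 and 2907 reads over 78 bases at chr5:122911793-122911870, and M21 holds an intron of that length there. Peak1, a pseudokinase, had 8004 and 1752 reads over 33 bases at chr9:56071575-56071607, while its highest annotated junction had 174 reads. The Peak1 stretch thus stood far above the splicing of its host gene and was uneven between the libraries.

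Without the known introns moved at both ends, 6723 junctions inside genes remained, of which 2431 carried the flag and 4292 did not. Both ends lay in introns in 1183 of the 2431 and in 823 of the 4292, and both in exons in 816 and 1842. Of all 7895 inside genes, 6811 lay on the strand of a host gene, 24.7% of them with the flag, and 1084 lay only opposite to one, 75.7% with the flag. Intron length set the junctions inside apart from those outside. Junctions inside genes had a median length of 682 bases (interquartile range 150 to 2450) and those outside 4963 bases (854 to 66806), and the flag divided the outside junctions further. Outside genes the median was 2411 bases with the flag and 86626 bases without it, and inside genes 738 and 518 bases. Annotated introns with at least 10 reads had a median of 1338 bases. Containment in a gene itself limits length, so the lengths inside and outside are given without a test.

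**Figure D2:**
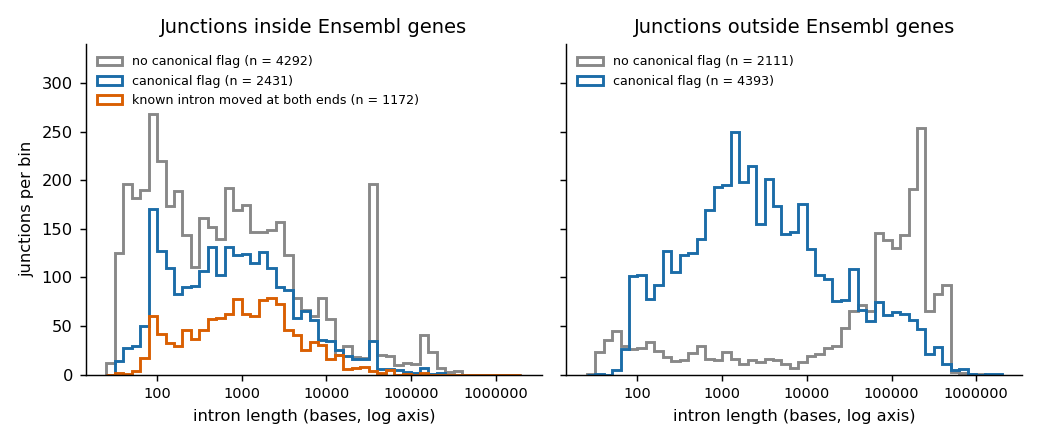
Number of junctions per bin (vertical axis) by intron length in bases (horizontal axis, log scale), inside genes (left) and outside (right), for known introns moved at both ends, junctions with the GT-AG flag and junctions without it. Outside genes the junctions without the flag (n = 2111) lie mostly at long lengths (median 86626 bases), and those with it (n = 4393) at shorter ones (median 2411).

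Outside genes, 966 of the 2111 junctions without the flag (45.8%) were longer than 100 kb, against 303 of 4393 with it (6.9%) and 0.388% of annotated introns. They were scattered over 597 windows of 1 Mb, with at most 14 in a window. Their number fell from 249 between 200 and 250 kb to 56 between 250 and 300 kb. The longest of all were 1618017 and 1416379 bases on chromosome 2 with the flag (13 and 14 reads), then 1000206 and 999535 bases without it (14 reads each) and 796828 bases with it (34 reads) on chromosome 4. All 5 had at least 1 end in an annotated exon. Inside genes the 5 longest were in Arhgap6 (384630 bases), Anks1b (347337), Cntnap5c (344671), Rasgef1b (340806) and Dst (289642), each with 14 to 21 reads and none with the flag.

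Short junctions lay at the other end. Fewer than 70 bases were skipped in 576 of 4292 junctions inside genes without the flag (13.4%), in 84 of 2431 with it (3.46%), in 120 of 2111 outside without it (5.68%) and in 9 of 4393 outside with it (0.205%). The shortest were 31 bases, 12 inside genes with 10 to 134 reads and 1 outside, at chr5:143206348-143206378, with 55 R1 and 30 R2 reads. The 12 tie in length, and the 5 named here come first when identifiers are sorted as text, not as numbers. They lay in Eif4ebp2, Dab2, Jup, Ints13 and Clcn4. None of the 13 carried the flag, and in Eif4ebp2, Dab2, Jup and Ints13 both ends lay in exons. The mitochondrial genome, for which the gene file has no row, held 42 junctions with a median of 72 bases and no flag.

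Both edges lay within 1 exon, where the bases could be read, in 1296 junctions. Those without the flag (878) had a median length of 88 bases and those with it (418) 191 bases. Moved known introns are counted here with either group, by their flag. Without them, 792 junctions lacked the flag, with a median of 84 bases and a shared run of at least 4 bases in 54.3%. The run of identical bases shared by the edges had a median of 4 without the flag and 2 with it, and it was at least 4 bases in 453 of 878 (51.6%) and in 123 of 418 (29.4%). In 1 of the 878 could the edges also have been placed further toward lower coordinates, and in 792 toward higher ones, so that nearly all were written at the lowest position the letters allow. With the flag, 282 and 289 of 418 could have been placed lower and higher. How far the shared letters bear on these junctions was not tested. Lengths divisible by 3 made up 41.6% without the flag and 42.1% with it. The host genes were abundant: a median of 76.8 TPM without the flag and 33.1 TPM with it, as the mean of both libraries.

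**Figure D3:**
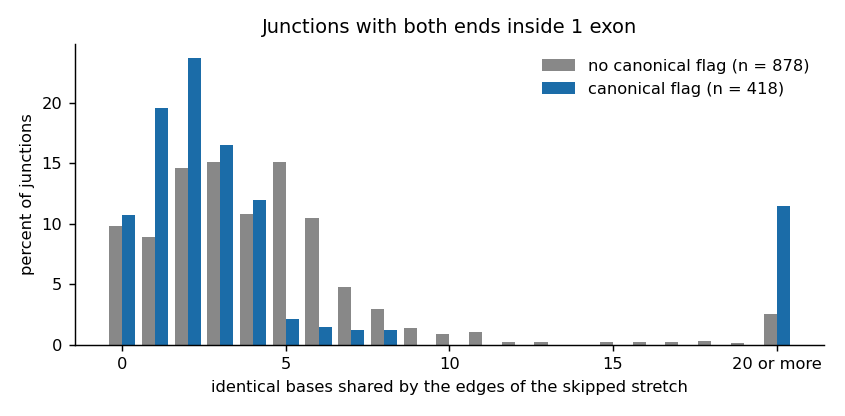
Percent of junctions with both ends inside 1 exon (vertical axis) by the number of identical bases shared by the edges of the skipped stretch (horizontal axis, 20 or more in the last class), with the GT-AG flag (n = 418) and without it (n = 878). Runs of 5 and 6 bases (133 and 92 junctions) are commoner without the flag (9 and 6 with it), and 48 junctions with the flag have runs of 20 or more.

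Host genes were 3856 of 37310 Ensembl genes, and 2539 of them held 1 junction. The 8 with most were Sprr2a2 (183), Firre (124), Acta2 (102), Mid1 (100), Smo (96), Gm20388 (82), Flna (77) and Myh11 (69). They fell into unlike kinds by flag, length and strand.

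Firre is a long noncoding RNA of the X chromosome built around a repeated domain. All 124 of its junctions carried the flag and lay on its strand, and they combined 35 start positions with 43 end positions. They held 5751 R1 and 11494 R2 reads, with a median length of 7328 bases. The highest had 2508 reads, above the 1120 reads of the highest annotated Firre junction, and 18 of the 124 had the length of an M21 intron there. R2 had more reads in 107 of the 124, and 26 were called uneven, all higher in R2, where 3.08% of all junctions tested were called in that direction. R1 held 47% of the reads over all junctions tested. The 124 share ends within 1 gene, so they are not separate observations of a difference between the libraries. Firre itself had 32.2 TPM in replicate 1 and 51.0 TPM in replicate 2.

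Sprr2a2 belongs to the small proline-rich proteins of stratified epithelium and spans other copies of its family in this annotation. Of its 183 junctions 174 lacked the flag, and the median length was 34814 bases with an interquartile range of 34634 to 34815. R1 had 3944 reads and R2 had 6141. The neighbouring copy Sprr2a3 held 59, of which 15 lay in both spans. TPM differed between the libraries too, with 10428 in replicate 1 and 19563 in replicate 2.

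Acta2, Flna and Myh11 are counted here among smooth muscle genes. Acta2 and Myh11 encode parts of the contractile apparatus, and Flna encodes filamin A, an actin crosslinker. Of their junctions 100 of 102, 69 of 77 and 66 of 69 lacked the flag and were not moved known introns. The highest Acta2 junction had 242 reads beside 437880 at the gene's highest annotated junction, the highest Flna junction 310 beside 78028, and the highest Myh11 junction 716 beside 105612. Their reads are small next to the normal splicing of these genes.

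Smo, the signal transducer of the Hedgehog pathway, held 96 junctions with a median of 16 reads, none with the flag, all on its strand and all between 29697680 and 29699090 on chromosome 6. Its highest annotated junction had 1011 reads and its level was 28.9 TPM in replicate 1 and 22.3 TPM in replicate 2. Mid1, a ubiquitin ligase at the end of the X chromosome, held 100, of which 8 lay on its strand, with a median of 14 reads. The span of Gm20388 (chr8:122434741-126869622) takes in many other genes, so its 82 junctions, 48 of them with the flag, are those of a region.

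Gene lists differed in their counts. Of 15 smooth muscle genes 14 held 562 junctions, of which 518 lacked the flag and were not moved known introns, and Lmod1 held none. Of 10 matrix genes 9 held 174, of which 165 were of that kind. Col1a1 held 44, Col3a1 35 and Col1a2 27. Of 17 urothelial genes 12 held 264, but 183 of these were in Sprr2a2 and 33 in Gstm1, while the uroplakin genes Upk1a, Upk1b and Upk3a held 13, 10 and 9. Of 9 MHC and immunoglobulin genes 3 held 6, and of 8 long noncoding RNA hosts 6 held 15, 4 of them in Snhg11. Firre, a long noncoding RNA with 124, was not on that list. The counts by list therefore depend on which genes were listed. Over the host genes of at least 1 TPM the median level was 25.7 TPM, against 15.1 TPM over all 13953 genes at that level. By group it was 37.9 TPM for hosts of junctions without the flag, 24.2 TPM with it and 17.4 TPM for moved known introns. A gene with more reads has more chances to reach 10 reads at any junction, so the rule itself favours abundant genes.

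Outside genes the picture was different. Of 6504 junctions, 4393 (67.5%) carried the flag, against 31.7% inside. A gene was overlapped but did not hold both ends in 2734, and 3770 touched no gene, of which 84.2% carried the flag. In 876 the ends lay in 2 different genes, and 23.5% of those carried the flag. Reads per junction had the same median, 20, inside and outside.

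Many outside junctions with the flag lined up as chains. Of the 4393, 2544 (57.9%) were joined to another on the same strand across a gap of at most 500 bases, the size of an exon, in 616 chains of which 140 had at least 5 junctions. Outside junctions without the flag did so in 462 of 2111 (21.9%), and those inside genes in 38.2% with the flag and 42.1% without it. The models assembled from these reads held 1759 of the 4393 (40%) and 84 of the 2111 (3.98%), which is not independent of the junctions.

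The later annotation M21 listed 1123 of the 4393 (25.6%) as introns of the same length and strand between the same neighbouring genes. No coordinates were converted for this match. The share was 0.947% outside without the flag (20 of 2111), 16.6% inside with the flag, 2.73% inside without it, 96.4% of the moved known introns and 99% of 2000 annotated introns drawn as a check. The match does not compare exact positions, and a moved known intron has the length of an annotated intron by definition. Its share therefore does not show that M21 lists the moved edges. Matched junctions outside genes with the flag had a median of 35 reads and the unmatched 20. Of 1113 that matched a single gene, 492 lay in 224 protein-coding genes, 296 in 177 lincRNAs and 102 in 43 processed transcripts, and 769 lay in the 344 genes that Ensembl 65 did not list.

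By reads, 4 of the 12 highest outside junctions matched M21 introns by length, strand and neighbouring genes and do not belong to the Gsdmc genes. Ly6a had 2644 R1 and 3917 R2 reads. Ndufb1-ps, which M21 lists as a noncoding RNA from a bidirectional promoter, had 2529 and 3044 reads at chr12:103207848-103213869 and 2170 and 2905 at chr12:103206421-103207702. Elob had 1974 and 3033 reads. These 4 carried the flag and were not called uneven between the libraries.

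Several genes that Ensembl 65 did not list gave a run of matched junctions outside genes. Hand2os1, a noncoding RNA opposite the developmental transcription factor gene Hand2, had 13 junctions with 1006 R1 and 1668 R2 reads, and its level was 26.1 TPM in replicate 1 and 36.7 TPM in replicate 2. Gm28729 had 10 with 2018 and 2212 reads, at 21.6 TPM and 20.8 TPM. Smim22, which encodes a small integral membrane protein, had 7 with 966 and 1303 reads, at 50.6 TPM and 69.7 TPM. Gm35339 had 16 with 258 and 367 reads and Mroh6 12 with 211 and 391, at 1.37 TPM and 2.18 TPM for Mroh6. Naaladl2 differed from these in having more R1 reads, 135 against 86, over 13 junctions. Nrbp2, a pseudokinase gene that Ensembl 65 lists but not over this stretch, had 6 junctions with 5263 and 8407 reads, the most of any matched gene. These genes were named after their values were seen.

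The Gsdmc genes of chromosome 15 gave 5 of the 12 highest outside junctions. Between 63608096 and 63771262 lay 151 junctions, 144 of them outside the span of any single gene and 117 with the flag, with 22030 R1 and 51781 R2 reads. R2 had more reads in 135 of them, and 62 were called uneven, 60 of these higher in R2 (8.01% of all junctions tested were uneven and 3.08% higher in R2). Many of the 151 share an end, so they are not separate observations. Reads were nearly equal in pairs that share an end and reach into different copies. The junction chr15:63665031-63699836 had 3387 and 8137 reads, beside 3386 and 8139 for the Gsdmc2 junction described above. Those at chr15:63667503-63675708 and chr15:63667503-63709090 had 1257 and 3011, and 1257 and 3012. The others were chr15:63665031-63733469 with 1599 and 4260, and chr15:63700857-63709090 with 1419 and 3244. Whether a read that fits several copies was counted at each of them is not given in the sources used here, and its part in these pairs was not tested.

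Over all junctions with at least 100 reads, 116 of 1927 (6.02%) had such a twin, another junction with the same end or the same length and with R1 and R2 reads equal within 2 reads or 1%. The share was 11% outside genes (87 of 791), 2.55% inside (29 of 1136) and 1.52% among annotated introns. A shared end with twin reads was found in 5.24% of the members and in 0.0307% of annotated introns. In all, 2841 junctions shared a start with another member, up to 25 at one position, and 3009 shared an end.

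The remaining 3 of the 12 highest outside had no flag and were called uneven, as were the 5 of the Gsdmc genes. At chr12:34505011-34647728 (142718 bases) R1 had 2339 and R2 had 6793 reads. At chr17:39983466-39984994 R1 had 5449 and R2 had 742. At chr3:18847902-18985551 (137650 bases) R1 had 4156 and R2 had 199. The chromosome 17 junction was 1 of 73 in a stretch of about 5 kb (39980264 to 39985227), none of them inside an Ensembl gene span. The nearest Ensembl gene, ENSMUSG00000045999, lay 54 bases from that junction. The stretch was labelled a ribosomal RNA locus when it was picked, and whether its reads are ribosomal RNA was not tested. R1 had 10625 reads there and R2 had 1780, and R2 was higher in 1 of 73. Of the 73, 53 were called uneven, all higher in R1 (4.94% of all junctions tested were). Junctions of 1 stretch are not separate observations. Inside genes, Zc3h7a showed a similar lean: 53 of its 54 junctions lay on the strand opposite to the gene, with 7276 R1 and 1208 R2 reads over all 54. The highest, 63 bases at chr16:11144155-11144217, had 4847 and 738.

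Muc16 gave the longest run of matched junctions outside genes and was singled out after its values were seen. No junction of the run lay inside an Ensembl 65 gene, while M21 lists 89 introns of Muc16, and 37 junctions with the flag had the lengths of M21 introns, from 79 to 10086 bases, between 18317329 and 18390406 on chromosome 9. Their reads were 10 to 45 each, with a median of 22, and 355 in R1 and 517 in R2 in all. Every junction but 1 had reads in both libraries. R2 had more reads in 25 of the 37, and 4 were called uneven, where 8.01% of all junctions tested were, so no lean of the run is read from these calls.

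The gap between neighbouring Muc16 junctions, an exon where no intron was missed, took a few sizes again and again. Of 36 gaps, 7 were 36 bases, 5 were 173, 5 were 66, 5 were 59 and 3 were 122. In the downstream part they followed each other in the order 173, 36, 66, 116 to 122 and 59, broken by a gap of 2058 bases. Whether the longest gaps, up to 5371 bases, are single exons was not tested. The 2 printed joins, each just after a 59-base exon, are equal in all 30 bases. In the order of transcription the first 11 junctions had 10 to 20 reads and the last 7 had 29 to 45. Copies that are equal over the length of a read cannot be told apart by it, and what this did to the reads was not tested.

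**Figure D4:**
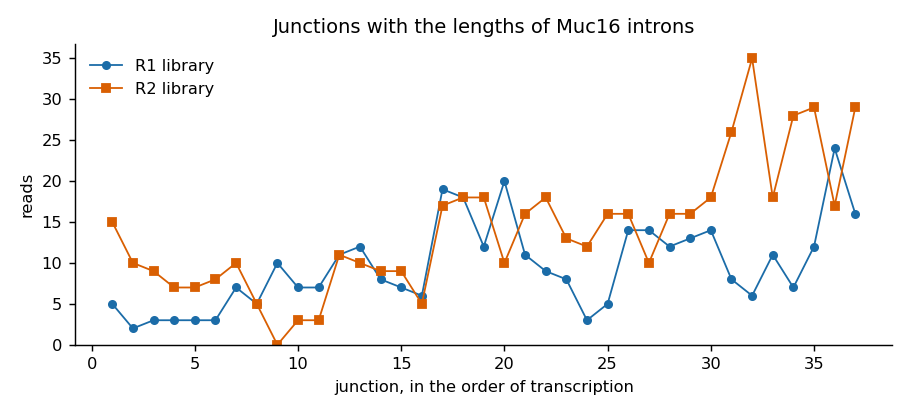
Reads in the R1 and R2 libraries (vertical axis) at the 37 junctions with the lengths of Muc16 introns, in the order of transcription (horizontal axis, with no scale of distance). The first 11 junctions have at most 15 reads in a library, and the highest value is 35 reads in R2 at junction 32.

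Both libraries gave reads to 13961 of the 14399 junctions (97.0%), with 97.0% inside genes and 96.9% outside. A further 204 had reads in R1 only and 234 in R2 only. By group, both libraries were present in 99.0% of moved known introns, 98.5% of the others with the flag and 95% of those without, against 99.9% of annotated introns. R1 held 47.3% of the reads inside genes and 43.2% of those outside, where junctions with the flag had 41.0% and those without 49.3%. Over all junctions with at least 10 reads it was 47%.

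Of the uneven junctions over all tested, 61.6% were higher in R1, and of those among annotated introns 70.1%. Junctions with the flag had a lower share of R1: 25.9% of the 611 uneven ones outside genes and 37.9% of the 322 inside. Without the flag the share was 66.7% of 574 outside and 58.5% of 685 inside, near that over all junctions. Among the moved known introns 81 of 112 were higher in R1 (72.3%), near that of annotated introns. Of the moved known introns 112 (9.56%) were uneven, near the share over all junctions. Their median of 142 reads, on which the power of the test depends, was above that of the other junctions with 2 new ends. It was below the median of 222 reads of annotated introns, which make up most of all junctions tested. Junctions outside genes without the flag had the highest share, 27.2%, and with the flag it was 13.9%. The difference between these shares was not tested.

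**Figure D5:**
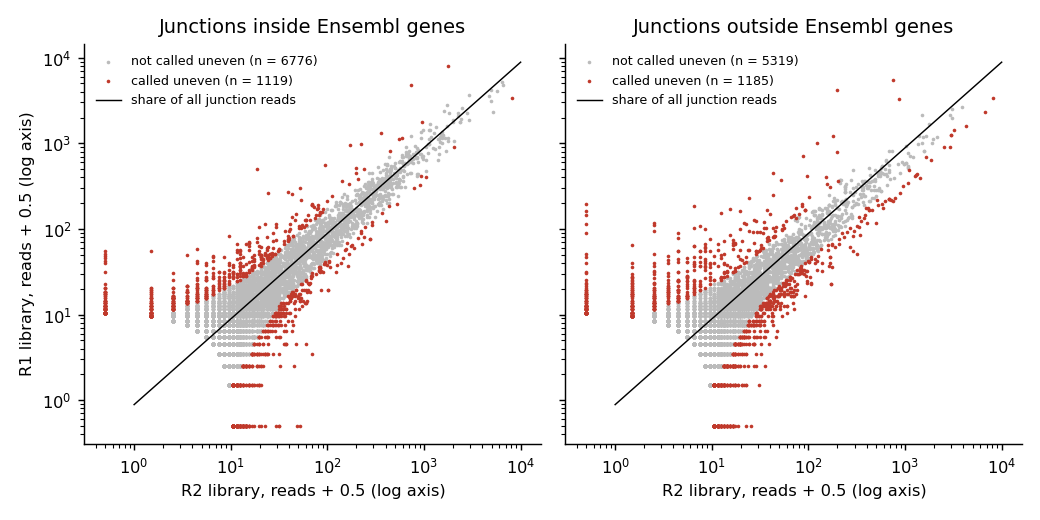
Reads in the R1 library against reads in the R2 library (both with 0.5 added, log axes) for junctions inside genes (left) and outside (right), 1 point for each junction. Red points are called uneven (1119 inside and 1185 outside), and the line is the share of R1 over all junctions; points at the left edge have no R2 read.

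The 6 most uneven junctions all had no R2 read and no flag. At chr3:103406371-103454234 R1 had 196 reads, at chr11:19908365-20012689 it had 145 and at chr5:14474651-14689999 it had 113. At chr6:30688267-30846458 it had 89 and in Mid1, opposite to the gene, it had 54 at chrX:166433514-166442457. The other one, on chromosome 18, had 163. Skipped lengths were 8944 to 215349 bases.

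The number of reads that chose the junctions passes through the steep part of their distribution. At 10 reads lay 1379 junctions, 41.8% of them with the flag and with a median of 1158 bases, and just outside the rule, at 9 reads, lay 1654, with 40.6% and 984 bases. At any depth the file has 703094 junctions with 2 new ends, of which 545629 have a single read, and 9.63% of those carry the flag.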

How the data were processed

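Junction read counts, deposited by the authors for the whole series on mm9, are summed over both libraries, and each junction's name gives the R1 and R2 counts. Ensembl 65 exons and genes, assembled exon models and a reproducibility value came from the authors' deposited mm9 tables. Gene TPM values were deposited by the authors for each library on mm10 and were matched by Ensembl identifier. No source used here names the aligner or the counter. The junction start was raised by 1, after which the file's own annotation mark equals an exact Ensembl intron match in all 1061777 junctions. Inside means that 1 gene span holds both ends.

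A moved known intron has both ends displaced equally by up to 30 bases. Letters were read from GENCODE M21 transcripts whose exon and intron lengths equal those of the Ensembl 65 transcript of the same identifier (68815 of 95495). An M21 match needs equal length and strand between the same neighbouring genes, with 5000 bases of slack. Symbols matched 32620 of 37310 genes. Fold changes used log2 with 0.5 added to counts. Python 3.11.15 with scipy 1.17.1 was used, and the test was tested on simulated data. Totals were 53589498 and 60510166 junction reads, which bounds precision by counting error only.

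The members, groups and gene lists were chosen with earlier results of these data known. Named junctions are the 12 with most reads, the 5 longest and the 5 shortest inside and outside genes, and the 6 most uneven by fold. The 8 host genes with most members are named too. Alternatives changed the read minimum, the strand, the start, the tolerance, the annotation, the library and the test. Some results on single genes are not reported here.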

Additional observations from a re-analysis of the deposited data

How the results depend on the processing

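The number of junctions (14399) became 32813, 7302 and 3363 with a minimum of 5, 20 and 50 reads, 22504 with the start taken as it stands, 7331 to 8385 with 1 library alone and 6896 with the GT-AG flag only. It stayed within 1.5 times under the other 6 alternatives. The share inside genes (54.8%) was 58.9% and 55.9% at 5 and 50 reads, 41.5% with ends within 10 bases counted as known, 47.3% on the same strand, 73.8% with any overlap, 50.8% without moved known introns and 36.3% with the flag only. With reads in both libraries the share (97.0%) was 82.9%, 99.7%, 96.6%, 96.8% and 98.5% at 5 reads, at 50 reads, within 10 bases, without moved known introns and with the flag only, and 97.21% to 97.22% with 1 library alone; requiring a read in each library makes it complete by construction. The median length inside (682) was 527, 940, 401, 617 and 749 bases under the same 5, and 740 to 807 with 1 library alone. Outside (4963) it was 7354, 3358, 4332 and 2411 bases at 5 reads, at 50 reads, within 10 bases and with the flag only, and 3791 to 4668 with 1 library alone. Outside remained longer than inside in each of these. Median reads inside (20) were 8, 133, 18 and 17 at 5 reads, at 50 reads, within 10 bases and without moved known introns, and 21 with 1 library alone; outside (20) they were 9, 107.5, 21 and 22 at 5 reads, at 50 reads, with a read in each library and with the flag only. The number uneven (2304) was 1337 at 20 reads and 941 with the flag only; Fisher's exact test, run for junctions of up to 1000 reads with the binomial p kept above that, gave 2304. Leaving out moved known introns and keeping the flag only were chosen after seeing the data. The causes of these moves were not tested beyond what each setting removes by construction. No paired analysis was possible because the 2 libraries are 1 group. Depth limits single junctions most: at 10 reads the split between libraries is coarse.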
